A study of Mus musculus with 4 samples.

Results

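The S100a genes of mouse chromosome 3 encode a family of small calcium-binding proteins, and 10 of them, S100a1, S100a3, S100a4, S100a6, S100a7a, S100a10, S100a11, S100a13, S100a14, and S100a16, were followed here among the 37981 gene loci measured by RNA-Seq. They were chosen by symbol, with their genotype values in these same libraries already known, so the values below are a description and no test was run on them. The libraries came from inner medullary collecting duct (IMCD) cells, an epithelium from the final stretch of the collecting duct, grown from C57B/l mice with floxed Tgfbr2, the gene for the TGF-β type II receptor (TβRII), and immortalized (the labels name psv40). TβRII-/- cells had received adeno-Cre and TβRIIfl/fl cells, which carry the same floxed alleles, had not, and cells of each genotype were sequenced after 4 days without serum or in serum-replete medium. The 4 conditions were therefore TβRII-/- serum-deprived, TβRIIfl/fl serum-deprived, TβRII-/- serum-replete, and TβRIIfl/fl serum-replete, with 1 library each. With no replicate, no difference can be set against a spread between cultures, and each one describes these libraries. Because TβRIIfl/fl cells received no virus, TβRII loss and adeno-Cre exposure cannot be told apart. The media share their cell populations, and finding a ratio in each of them is not a second deletion experiment.

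S100 proteins carry a pair of EF-hand calcium-binding loops and mostly work as dimers, which open on binding calcium and then grip a partner protein, such as an annexin or a myosin. Most of their genes lie in a run on mouse chromosome 3, beside the epidermal differentiation complex, a stretch of genes for proteins of the skin barrier. S100a10 is the exception that no longer binds calcium and instead pairs with annexin A2 at the membrane. Several S100 proteins also act outside cells, on receptors such as RAGE. In kidney, S100a4, also called fibroblast-specific protein, and S100a6 are much studied in fibrosis, S100a4 as a mark of fibroblasts and S100a6 in injured tubules.

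In the mm10 coordinates of the tables, 8 of the genes formed a block of 147 kb on chromosome 3 from 90511034 to 90658130, in the order S100a1, S100a13, S100a14, S100a16, S100a3, S100a4, S100a6, and S100a7a, and S100a11 and S100a10 formed a second block of 44.2 kb from 93520488 to 93564643. A stretch of 2862 kb separated the blocks. S100a1 alone is transcribed from the minus strand, 42 bp from the row of S100a13. RefSeq promoter windows of the GRCm38.p6 assembly were matched for 8 of the 10 genes, all but S100a14 and S100a10, and each was read for 250 bases before the start. The windows of S100a4, S100a6, S100a7a, and S100a11 are printed because these genes had the largest levels or genotype ratios, and that of S100a16 because its level was nearly the same in both genotypes. Capitals mark the letters of the motifs searched on both strands.
S100a4: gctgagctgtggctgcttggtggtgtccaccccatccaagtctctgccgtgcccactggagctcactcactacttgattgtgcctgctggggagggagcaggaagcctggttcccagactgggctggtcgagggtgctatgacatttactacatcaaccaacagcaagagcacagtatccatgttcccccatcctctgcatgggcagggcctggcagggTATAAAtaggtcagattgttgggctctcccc
S100a6: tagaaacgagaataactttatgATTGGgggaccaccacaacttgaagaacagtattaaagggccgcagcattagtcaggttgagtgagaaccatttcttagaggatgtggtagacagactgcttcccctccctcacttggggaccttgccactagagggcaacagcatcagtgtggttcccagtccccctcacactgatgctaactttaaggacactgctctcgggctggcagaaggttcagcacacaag
S100a7a: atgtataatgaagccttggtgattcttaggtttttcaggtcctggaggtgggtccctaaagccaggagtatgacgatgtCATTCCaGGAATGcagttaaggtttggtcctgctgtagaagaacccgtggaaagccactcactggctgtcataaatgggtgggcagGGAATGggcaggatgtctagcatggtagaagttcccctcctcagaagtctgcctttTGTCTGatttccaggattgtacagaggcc
S100a11: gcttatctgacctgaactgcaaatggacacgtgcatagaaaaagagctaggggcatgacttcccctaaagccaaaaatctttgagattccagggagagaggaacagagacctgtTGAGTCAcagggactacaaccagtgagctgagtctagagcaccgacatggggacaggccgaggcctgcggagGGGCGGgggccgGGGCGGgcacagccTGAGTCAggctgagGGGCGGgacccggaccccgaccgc
S100a16: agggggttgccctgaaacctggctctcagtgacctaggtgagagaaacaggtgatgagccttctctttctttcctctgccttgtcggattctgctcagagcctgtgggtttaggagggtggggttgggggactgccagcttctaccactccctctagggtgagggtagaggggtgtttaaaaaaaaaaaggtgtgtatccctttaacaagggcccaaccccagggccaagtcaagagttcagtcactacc
All 5 windows are on the plus strand and read 5′ to 3′. They are chr3:90603520-90603769 for S100a4, chr3:90612644-90612893 for S100a6, chr3:90654052-90654301 for S100a7a, chr3:93520246-93520495 for S100a11, and chr3:90537004-90537253 for S100a16. The S100a11 window ends 8 bases inside the row of the tables, since RefSeq places the start slightly further on.

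No motif was common to any of the 5 windows printed. The window of S100a4 held a TATA box (TATAAA) 31 to 26 bases before the start, a motif found in 12.4% of 32851 RefSeq promoter windows of this length. In the S100a7a window the TEAD motif (GGAATG) occurred 3 times, 171 to 166, 164 to 159, and 85 to 80 bases before the start, with the first on the opposite strand, and 12.6% of all windows held it at least once. It also held the SMAD motif (CAGACA, here as TGTCTG) 29 to 24 bases before the start, as did 17.1% of all windows. The S100a11 window held the AP-1 motif (TGANTCA, here TGAGTCA) at 136 to 130 and at 38 to 32 bases before the start, against 6.75% of all windows with at least 1 match, and 3 Sp1 motifs (GGGCGG, in 32.7% of all windows). A CCAAT box (CCAAT, here as ATTGG; 33.8% of all windows) was the single match of S100a6, and the window of S100a16 had none. The E2F motif (TTTCCCGC) was in none of the 8 windows and in 0.895% of all. Of the windows not printed, that of S100a3 held 1 TEAD and 1 Sp1 motif, and those of S100a1 and S100a13 held none. None of the matches overlapped another. A match is a run of letters and not evidence that a factor binds there.

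The levels of the 10 genes spread over several orders of magnitude, and the order was broadly similar in the 4 libraries. Levels are FPKM, which count fragments relative to the length of the transcript and the size of the library, so they can be compared between genes of unlike length. S100a6 was the highest member in the TβRII-/- serum-replete library and S100a11 in the other 3. With 1 library per condition this order has no error attached. S100a10 and S100a4 came next in TβRII-/- cells. In TβRIIfl/fl cells S100a10 was followed by S100a1, S100a4, and S100a16, which lay between 75.0 and 113 FPKM in both libraries and whose order changed with the medium. S100a13 and S100a3 were lower, S100a7a was under 1 FPKM in both TβRIIfl/fl libraries, and S100a14 was at or near 0 throughout. Summed over the 10 genes, the level was 9138 FPKM in TβRII-/- serum-deprived cells, against 4329 in TβRIIfl/fl serum-deprived cells. In serum-replete medium the sum was 13268 FPKM in TβRII-/- cells and 4804 in TβRIIfl/fl cells. The members thus took 0.912% and 1.28% of the FPKM sum of all loci in the serum-deprived and serum-replete TβRII-/- libraries, against 0.380% and 0.428% in the matching TβRIIfl/fl libraries. Each medium was normalized in a table of its own, so genotypes are compared within a medium, and values from the 2 media are only set side by side. In these bulk libraries more expressing cells and more RNA per cell cannot be told apart.

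**Figure D1:**
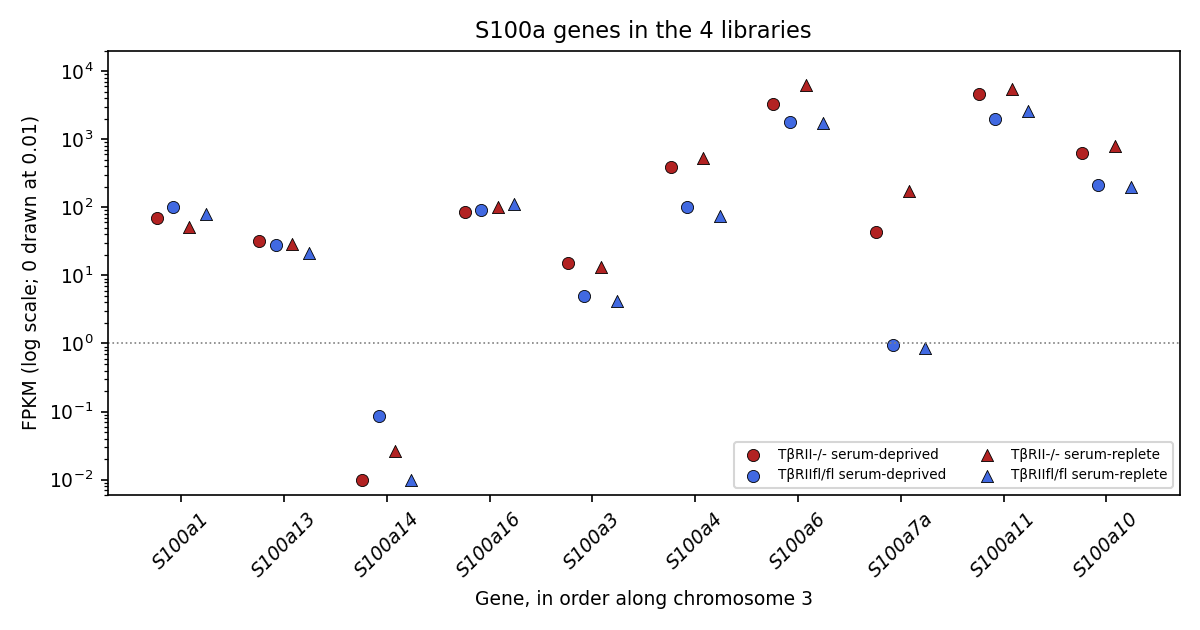
FPKM of each S100a gene (log scale, with 0 drawn at 0.01) in the 4 libraries, in order along chromosome 3, with TβRII-/- in red, TβRIIfl/fl in blue, circles for serum-deprived, and triangles for serum-replete; each point is 1 library. From S100a3 onward every red point sits above the blue point of its medium, while S100a1 and S100a16 sit lower in TβRII-/- cells, and the dotted line marks the 1 FPKM filter.

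At 2-fold on the scale of log2(FPKM + 1), 5 of the 10 genes were higher in TβRII-/- cells after serum deprivation and 6 in serum-replete medium, and none was lower. Of all loci with at least 1 FPKM in either library, 8.02% were higher and 6.64% lower after serum deprivation, and 7.0% were higher and 11.1% lower in serum-replete medium. Because the genes were picked with these ratios known, nothing is read from that difference. The 5 genes higher in both media were S100a3, S100a4, S100a7a, S100a10, and S100a11, and S100a6 was the addition in serum-replete medium. S100a1, S100a13, and S100a16 stayed within 2-fold in both media. S100a14 did not pass the filter, and S100a7a passed it only through the TβRII-/- libraries. The median log2 ratio over all 10 genes was 1.04 after serum deprivation and 1.26 in serum-replete medium, against 0.028 and -0.029 over all loci that passed.

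**Figure D2:**
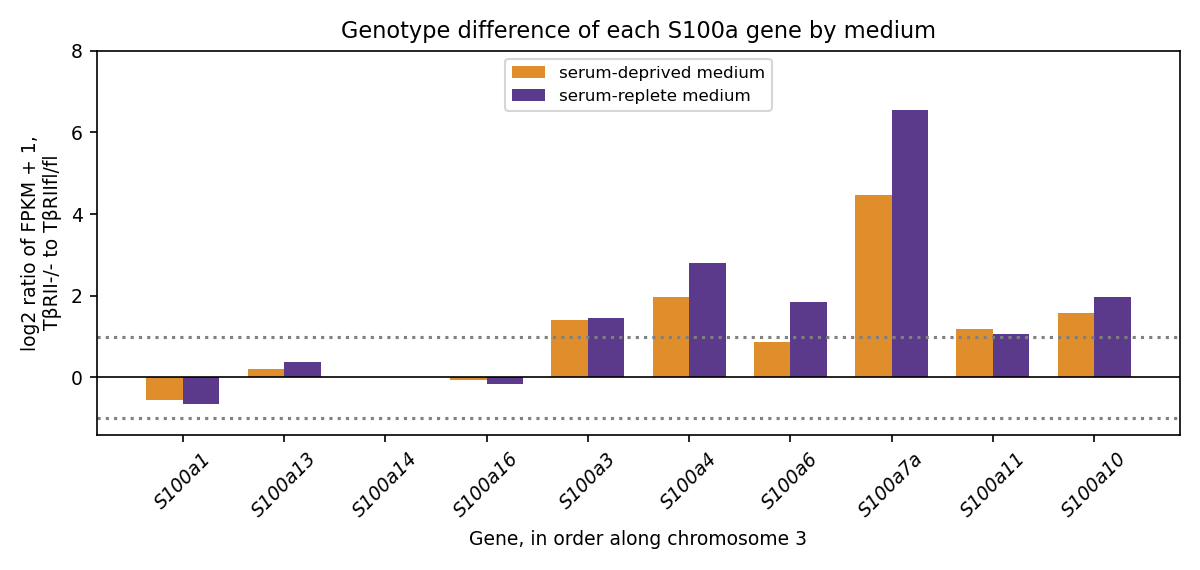
Log2 ratio of FPKM + 1 in TβRII-/- over TβRIIfl/fl cells for each S100a gene, in order along chromosome 3, after serum deprivation (orange) and in serum-replete medium (purple); the dotted lines mark 2-fold, and S100a14, which did not pass the filter, has no bar. The 6 genes from S100a3 to S100a10 have bars between 0.88 and 6.54, and those of S100a1, S100a13, and S100a16 lie between -0.65 and 0.39.

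S100a7a belongs to the psoriasin branch of the family, secreted antimicrobial and chemoattractant proteins of stratified epithelia, and is not a gene usually associated with the collecting duct. It was 42.8 FPKM in TβRII-/- serum-deprived cells, against 0.965 FPKM in TβRIIfl/fl serum-deprived cells. The TβRII-/- serum-replete library had 172 FPKM and the TβRIIfl/fl serum-replete library 0.853 FPKM. The gene was thus well above 1 FPKM in both TβRII-/- libraries and just under it in both TβRIIfl/fl libraries. The log2 ratios, 4.48 and 6.54, were the largest of the 10 genes in each medium, and stood at rank 52 of 12687 and rank 20 of 12635 loci ordered by ratio. As plain FPKM ratios they correspond to 44.4 and 202, but their denominators are low. S100a7a passed the filter only through the TβRII-/- libraries, so its direction was set by the filter. It was also chosen with these values known, and nothing is read from its direction or rank. For the longest transcript of 1280 bp and the 30000000 reads of the labels, the TβRIIfl/fl values would be about 37 and 33 reads. Between bases 723 and 903 that transcript matches transcripts of at least 432 other genes at 90% identity or more over at least 100 bp. The search kept a limited number of matches, so the full number is unknown. The reads of this stretch are therefore uncertain.

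S100a4 binds non-muscle myosin IIA and is known for its part in cell motility. It was 392 FPKM in TβRII-/- serum-deprived cells and 99.8 FPKM in TβRIIfl/fl serum-deprived cells, which gave a log2 ratio of 1.96. The serum-replete values were 529 FPKM in TβRII-/- cells and 75.0 FPKM in TβRIIfl/fl cells, a log2 ratio of 2.80. S100a4 therefore had the second largest ratio of the family in both media. Its neighbor S100a3, whose protein is known from the cuticle of the hair shaft, ends 1.07 kb before S100a4 and was far less abundant. S100a3 was 15.0 FPKM in TβRII-/- serum-deprived cells and 5.02 FPKM in TβRIIfl/fl serum-deprived cells, and 13.3 FPKM in TβRII-/- serum-replete cells and 4.18 FPKM in TβRIIfl/fl serum-replete cells. Its log2 ratios of 1.41 and 1.46 hardly differed between the media. GENCODE vM21 places Gm42674 across both genes on the same strand, from 90601904 to 90605885, with 302 bases identical to S100a4. This gene has no row in the tables, so the values of S100a3 and S100a4 are uncertain to the extent that its reads were counted in them.

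S100a6, or calcyclin, which binds the ubiquitin ligase adaptor CacyBP and annexins, was one of the most abundant members. It was 3300.15 FPKM in TβRII-/- serum-deprived cells, against 1796 FPKM in TβRIIfl/fl serum-deprived cells. The serum-replete values were 6184 FPKM in TβRII-/- cells and 1727 FPKM in TβRIIfl/fl cells. The log2 ratios were 0.88 and 1.84, so that S100a6 fell just short of 2-fold after serum deprivation. S100a11, a partner of annexin A1, was 4571 FPKM in TβRII-/- serum-deprived cells and 1996 FPKM in TβRIIfl/fl serum-deprived cells, and 5400.1 FPKM in TβRII-/- serum-replete cells and 2579.9 FPKM in TβRIIfl/fl serum-replete cells. Its log2 ratios of 1.20 and 1.07 were the smallest of the 5 genes called in both media, and the serum-replete value was the nearest above the 2-fold line. GENCODE vM21 holds 5 gene copies with more than 90% identity to S100a11 over at least 227 bp. The 3 of them in the tables, Gm12854, Gm7665, and Gm13640, reached at most 1.95 FPKM, small beside S100a11.

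S100a10, or p11, joins annexin A2 in a tetramer that binds plasminogen and tissue plasminogen activator at the cell surface. It was 629 FPKM in TβRII-/- serum-deprived cells and 211 FPKM in TβRIIfl/fl serum-deprived cells, and 789 FPKM in TβRII-/- serum-replete cells and 202 FPKM in TβRIIfl/fl serum-replete cells. Both TβRII-/- values exceeded those of TβRIIfl/fl cells, at plain FPKM ratios of 2.98 and 3.91 and log2 ratios of 1.57 and 1.96.

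The remaining genes lie together at the start of the first block and did not share this pattern. S100a1, best known from heart muscle, where it binds the calcium release channel and pump, was the member lowest in TβRII-/- cells relative to TβRIIfl/fl cells. It was 69.2 FPKM in TβRII-/- serum-deprived cells and 101 FPKM in TβRIIfl/fl serum-deprived cells, and 51.2 FPKM in TβRII-/- serum-replete cells and 80.9 FPKM in TβRIIfl/fl serum-replete cells. The log2 ratios were -0.54 and -0.65, short of 2-fold. S100a13, which takes part in the nonclassical release of FGF1 and interleukin-1α, starts on the other strand 105 bp from the RefSeq start of S100a1. Its level was 32.5 FPKM in TβRII-/- serum-deprived cells and 28.0 FPKM in TβRIIfl/fl serum-deprived cells, and 28.7 FPKM in TβRII-/- serum-replete cells and 21.7 FPKM in TβRIIfl/fl serum-replete cells. The divergent pair thus had log2 ratios of opposite sign in both media, those of S100a13 being 0.21 and 0.39. The rows of the pair do not overlap in the tables, and the sources used here do not say whether the libraries kept the strand.

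S100a16, a widely expressed member, was 86.7 FPKM in TβRII-/- serum-deprived cells and 90.8 FPKM in TβRIIfl/fl serum-deprived cells. S100a16 reached 101 FPKM in TβRII-/- serum-replete cells and 113 FPKM in TβRIIfl/fl serum-replete cells. With log2 ratios of -0.07 and -0.16 it was the member least different between the genotypes. S100a14, a gene of epithelial tissues, was listed at 0 in TβRII-/- serum-deprived cells and 0.0858 FPKM in TβRIIfl/fl serum-deprived cells, and 0.0264 FPKM in TβRII-/- serum-replete cells and 0 in TβRIIfl/fl serum-replete cells. These values are too low for a ratio.

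**Figure D3:**
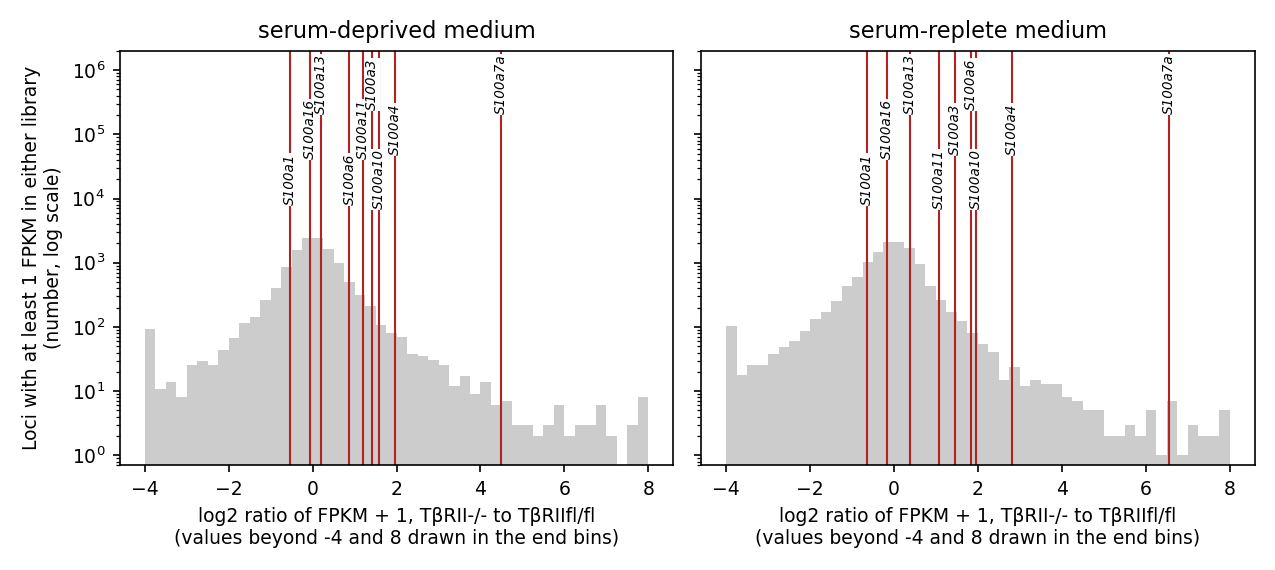
Number of loci (log scale) by log2 ratio of FPKM + 1 in TβRII-/- over TβRIIfl/fl cells, after serum deprivation at left and in serum-replete medium at right, with a red line for each S100a gene that passed the filter of 1 FPKM; loci beyond -4 and 8 are in the end bins. S100a7a stands far out in the upper tail at 4.48 and 6.54, S100a11 and S100a10 lie on the right flank, and S100a16 lies in the central mass at -0.07 and -0.16.

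The genes on either side of the blocks were read to see how far the pattern reached. Within 200 kb of a member there were 24 other loci, of which 5 passed the filter, all of them before S100a1. These were Gatad2b, Ints3, Chtop, and Ilf2 and Snapin, which share a locus in the tables, and none was called in either medium, with log2 ratios of 0.09 to 0.49 after serum deprivation and 0.04 to 0.63 in serum-replete medium. The nearest, Chtop, a chromatin and mRNA export factor, lies 1.54 kb from S100a1 and was 60.0 FPKM in TβRII-/- serum-deprived cells and 55.0 FPKM in TβRIIfl/fl serum-deprived cells. On the far side of S100a10 the nearest locus that passed, more than 200 kb away, was Them4, with log2 ratios of 0.19 and 0.17.

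The stretch between S100a7a and S100a11 holds the epidermal differentiation complex, and 4 of the 69 loci in it passed the filter. Sprr1a, Sprr2g, and Lce3c were past 2-fold higher in TβRII-/- cells in both media and Crct1 in serum-replete medium. Lce3c in both media, Sprr2g after serum deprivation, and Crct1 passed only through the TβRII-/- library, so their direction was set by the filter and nothing is read from it. Sprr1a, a cornified envelope precursor also known as a gene of injured epithelium and nerve, was 49.6 FPKM in TβRII-/- serum-deprived cells and 1.78 FPKM in TβRIIfl/fl serum-deprived cells, at a log2 ratio of 4.18. Sprr1a was 449 FPKM in TβRII-/- serum-replete cells and 139 FPKM in TβRIIfl/fl serum-replete cells, a log2 ratio of 1.68. Lce3c, of the late cornified envelope family, was 15.7 FPKM in TβRII-/- serum-deprived cells, against 0.209 FPKM in TβRIIfl/fl serum-deprived cells. Of the 18 barrier genes listed for this complex, which include Flg, Lor, and Ivl, Sprr1a alone passed the filter, and 10 were listed at 0 in every library. High ratios in the stretch thus came from a few loci, with most of it under 1 FPKM in all 4 libraries.

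**Figure D4:**
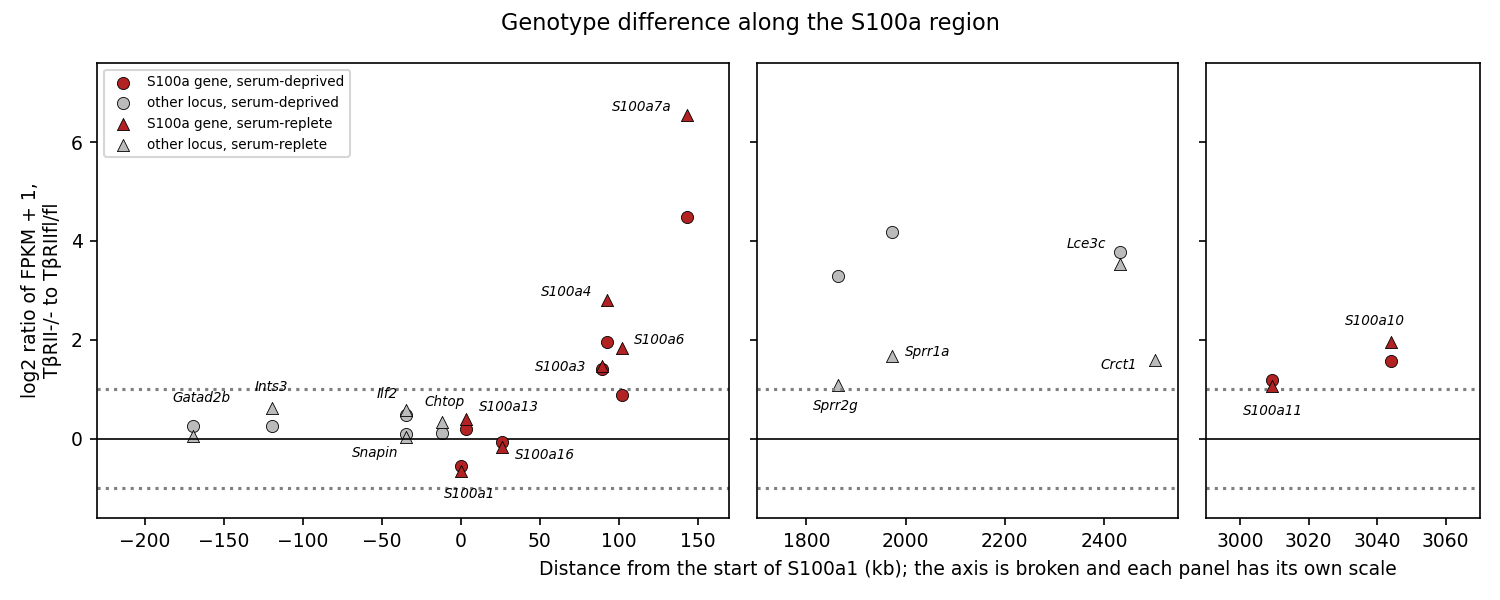
Log2 ratio of FPKM + 1 in TβRII-/- over TβRIIfl/fl cells against distance from the start of S100a1 (kb, axis broken, each panel with its own scale), for S100a genes (red) and other loci with at least 1 FPKM (gray), with circles for serum-deprived and triangles for serum-replete. Loci before S100a1 stay below the dotted 2-fold line at 0.04 to 0.63, the genes from S100a3 to S100a7a and S100a11 and S100a10 lie near or above it, and the 4 gray loci between the blocks lie above it.

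Most S100a genes differed little between the media, and the genotype difference of a few was larger in serum-replete medium. As these ratios cross tables that were normalized separately, they are set beside the medians over all loci that passed, 0.133 in TβRII-/- cells and 0.021 in TβRIIfl/fl cells. In TβRII-/- cells S100a7a was lower after serum deprivation, at a log2 ratio of -1.98, and no other member reached 2-fold, while 5.92% of all loci were lower and 8.02% higher. S100a6 was next at -0.91, followed by S100a4 at -0.43. In TβRIIfl/fl cells no member reached 2-fold, against 3.77% of all loci lower and 2.76% higher, and the ratios of the 8 that passed ran between -0.37 for S100a11 and 0.41 for S100a4. The genotype log2 ratio after serum deprivation minus that in serum-replete medium was -2.07 for S100a7a, -0.96 for S100a6, -0.84 for S100a4, and -0.39 for S100a10. For S100a1, S100a3, S100a11, S100a13, and S100a16 the same difference lay between -0.19 and 0.13.

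**Figure D5:**
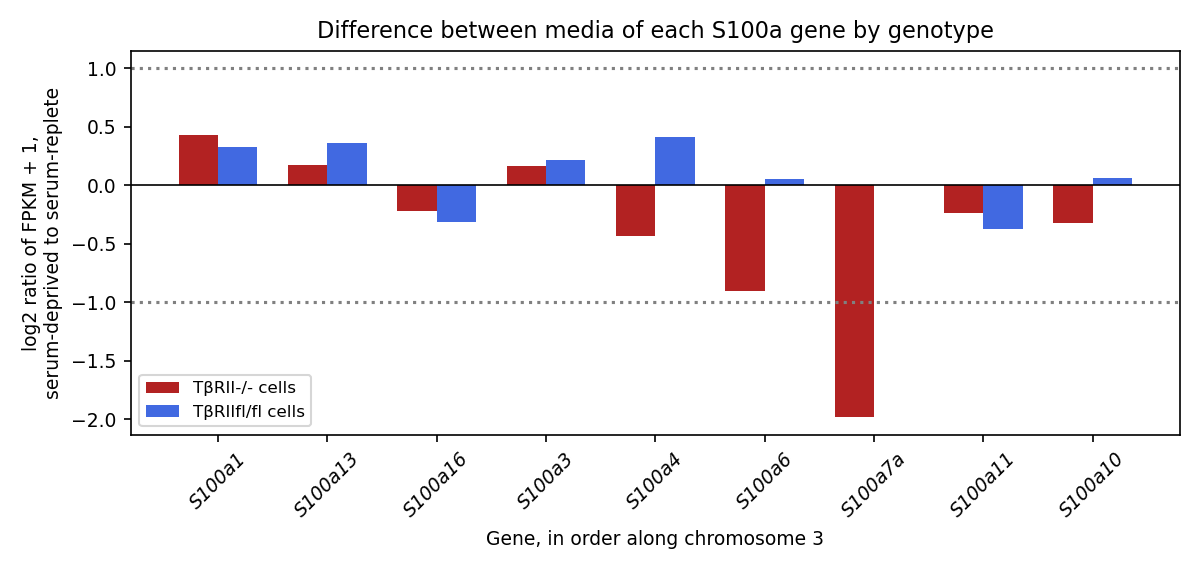
Log2 ratio of FPKM + 1 after serum deprivation over serum-replete medium for the S100a genes that passed the filter, in TβRII-/- cells (red) and TβRIIfl/fl cells (blue), with dotted lines at 2-fold; S100a7a has no blue bar because both TβRIIfl/fl values are under 1 FPKM. S100a7a at -1.98 is the single bar past a dotted line, and S100a4 has bars of opposite sign, -0.43 and 0.41.

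Genes with a pattern like that of the leading members were sought by the distance between their log2 values in the 4 libraries, each gene centered on its own mean, among 9318 loci. For S100a11, the most abundant member, the nearest were Map3k9, Tyro3, and Tpst2, at distances of 0.067, 0.094, and 0.11. Tpst2 was 41.8 FPKM in TβRII-/- serum-deprived cells, 19.4 FPKM in TβRIIfl/fl serum-deprived cells, 49.1 FPKM in TβRII-/- serum-replete cells, and 23.9 FPKM in TβRIIfl/fl serum-replete cells. In the same order, Map3k9 was 6.37, 2.13, 7.96, and 3.05 FPKM, and Tyro3 was 5.46, 1.84, 7.16, and 2.91 FPKM. At such low levels the 1 FPKM added before the log narrows a ratio, which it hardly does for S100a11. Map3k9 and Tyro3 are therefore less like S100a11 in plain FPKM. For S100a7a the nearest, at a far larger distance of 1.26, was Hoxd13, a homeobox gene of the distal limb and urogenital tract. Hoxd13 was 21.0 FPKM in TβRII-/- serum-deprived cells and 0.0455 FPKM in TβRIIfl/fl serum-deprived cells, and 32.8 FPKM in TβRII-/- serum-replete cells and 0.0464 FPKM in TβRIIfl/fl serum-replete cells. The short RNA genes Gm24776 and Snord88c followed, at 1.63 and 1.69. With 4 libraries many genes can lie this close, and all of these are on other chromosomes.

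Of the S100 genes outside the 10, 6 of 7 listed were found and 2 passed the filter. After serum deprivation 1 was lower in TβRII-/- cells, and in serum-replete medium 1 was lower and 1 higher. Over all loci 8.02% were higher and 6.64% lower, and then 7.0% higher and 11.1% lower. With 2 genes nothing is read from these counts. S100g, or calbindin-D9k, a vitamin D-dependent calcium buffer of the distal nephron and gut, ran opposite to the higher members. It was 0.490 FPKM in TβRII-/- serum-deprived cells and 3.34 FPKM in TβRIIfl/fl serum-deprived cells, and 2.68 FPKM in TβRII-/- serum-replete cells and 36.8 FPKM in TβRIIfl/fl serum-replete cells, with log2 ratios of -1.54 and -3.36. After serum deprivation S100g passed the filter only through the TβRIIfl/fl library, so its direction there was set by the filter. Ctps2 shares the X-chromosome locus of S100g in the deposited rows, so the split of reads between them is uncertain. S100z was 2.25 FPKM in TβRII-/- serum-deprived cells and 0.686 FPKM in TβRIIfl/fl serum-deprived cells, and 1.38 FPKM in TβRII-/- serum-replete cells and 0 in TβRIIfl/fl serum-replete cells. S100z passed the filter only through the TβRII-/- libraries, so its direction was set by the filter and nothing is read from it. S100a5, S100a8, and S100b were under 1 FPKM everywhere, and S100a9, the neutrophil partner of S100a8, was listed at 0 in all 4 libraries. S100a2, singled out after its values were seen because it lies between S100a16 and S100a3, was 0.476 and 0.199 FPKM in the serum-deprived and serum-replete TβRII-/- libraries and 0 in both TβRIIfl/fl libraries.

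Partners of the S100 proteins were higher, lower, or close to even. Of 28 genes for S100 binding partners 22 passed the filter, and 4 were higher and 2 lower in TβRII-/- cells after serum deprivation, with 3 higher and 2 lower in serum-replete medium, beside 8.02% higher and 6.64% lower and then 7.0% higher and 11.1% lower of all loci. The median log2 ratio over the 22 was 0.22 and 0.25, against 0.028 and -0.029 over all loci that passed. Anxa2, the partner of S100a10, was 1204 FPKM in TβRII-/- serum-deprived cells and 456 FPKM in TβRIIfl/fl serum-deprived cells, and 1357 FPKM in TβRII-/- serum-replete cells and 536 FPKM in TβRIIfl/fl serum-replete cells, with log2 ratios of 1.40 and 1.34. Anxa1, the partner of S100a11, had log2 ratios of 1.82 and 1.31, and was 1346 FPKM in TβRII-/- serum-deprived cells and 381 FPKM in TβRIIfl/fl serum-deprived cells. Ahnak, the giant scaffold held at the membrane by S100a10 and annexin A2, had 1.58 after serum deprivation and 0.89 in serum-replete medium. Fgf1, the cargo of S100a13, was lower, at -1.41 and -1.96. Plat, the tissue plasminogen activator bound by S100a10, was lower after serum deprivation, at -1.23, and had -0.65 in serum-replete medium, while Anxa6 had -0.47 and was lower in serum-replete medium, at -1.99. Plaur, the urokinase receptor, was higher at 1.10 and 1.94. Myh9, the myosin partner of S100a4, and Cacybp, the partner of S100a6, stayed within 2-fold, at 0.22 and -0.62 and at -0.36 and 0.21. Plat, Anxa6, Plaur, Myh9, and Cacybp were named after their values were seen.

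Of 10 receptors or surface proteins bound by extracellular S100 proteins 9 passed, with 2 higher and 1 lower after serum deprivation. In serum-replete medium 1 was lower and none higher, and the medians were 0.30 and 0.002. Of all loci that passed, 8.02% were higher and 6.64% lower after serum deprivation, with a median of 0.028. The matching values in serum-replete medium were 7.0%, 11.1%, and -0.029. Mcam, a reported docking protein for S100a8 and S100a9, had log2 ratios of 1.87 and 0.66, and Tlr4 had 1.31 and 0.67. Fgfr1 was lower in both media, at -1.16 and -1.10. Ager, which encodes RAGE, was close to absent, at 0.482 FPKM in TβRII-/- serum-deprived cells and 1.45 FPKM in TβRIIfl/fl serum-deprived cells, and 0.110 FPKM in TβRII-/- serum-replete cells and 1.09 FPKM in TβRIIfl/fl serum-replete cells. Among 25 other EF-hand genes, 2 of the 19 that passed after serum deprivation were higher and none lower. In serum-replete medium 3 of the 20 were higher and 1 lower, and the medians were 0.46 and 0.28. The shares and medians over all loci just given are the background of these counts too. Tesc, a regulator of sodium-proton exchange, had 2.24 and 2.09, Gca, or grancalcin, 1.18 and 1.13, Sri, or sorcin, 0.81 and 1.02, and Efhd1, a mitochondrial protein, 0.92 and -0.05.

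S100a4 is often measured together with mesenchymal genes, and the ratios of these did not all share a direction here. Of 17 such genes 13 passed after serum deprivation, with 2 higher and 2 lower in TβRII-/- cells and a median log2 ratio of 0.62. In serum-replete medium 14 passed, with 1 higher and 5 lower and a median of -0.86, so more were lower than higher. Of all loci that passed, 8.02% were higher and 6.64% lower after serum deprivation, with a median of 0.028. The matching values in serum-replete medium were 7.0%, 11.1%, and -0.029. Vim, which encodes vimentin, was higher in both media, at 1.03 and 1.10, and Sparc after serum deprivation alone, at 1.56 and -0.10. Mmp2 was lower at -2.97 and -3.08, while S100a4 was higher in the same libraries. Postn had -1.77 and -4.02 but passed the filter only through the TβRIIfl/fl libraries. Its direction was therefore set by the filter, and nothing is read from it. The other genes lower in serum-replete medium were Acta2 at -1.91, Snai2 at -1.63, and Tagln at -1.48, named after their values were seen. All of these stayed within 2-fold after serum deprivation, at 0.85, -0.49, and 0.87.

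Markers of other cells were read beside these values. All 9 fibroblast markers, among them Pdgfra, Pdgfrb, Col1a1, and Dcn, were under 1 FPKM except Col1a1 in TβRIIfl/fl serum-replete cells, and their sum was 0.654 FPKM in TβRII-/- and 0.700 FPKM in TβRIIfl/fl serum-deprived cells, and 0.735 FPKM in TβRII-/- and 3.06 FPKM in TβRIIfl/fl serum-replete cells. S100a4 was highest in TβRII-/- serum-replete cells, but the sum was about as low in both serum-deprived libraries, where S100a4 was lower. Levels of the mesenchymal genes above varied in the TβRII-/- serum-replete library. Vim was 2877 FPKM, Fn1 745 FPKM, and Acta2 387 FPKM, while Postn and Snai1 were under 1 FPKM. How either set bears on S100a4 was not tested. The 10 leukocyte markers summed to 20.8 FPKM in TβRII-/- and 21.6 FPKM in TβRIIfl/fl serum-deprived cells, and 20.9 FPKM in TβRII-/- and 13.7 FPKM in TβRIIfl/fl serum-replete cells, most of it Csf1r and Cd68, with Cd3e at 0 throughout, and the 5 endothelial markers summed to at most 0.579 FPKM. Of the 16 collecting duct and epithelial markers, 8 to 10 reached 1 FPKM in each library. Of the 11 that passed in each medium, 2 were higher and 3 lower in TβRII-/- cells after serum deprivation. In serum-replete medium 2 were higher and 5 lower. The shares over all loci were 8.02% higher and 6.64% lower, and then 7.0% higher and 11.1% lower. Aqp2, the defining water channel of the principal cell, was listed at 0 in all 4 libraries, and Cdh1 was at most 1.79 FPKM, whereas the transcription factors Hoxb7, at 35.1 to 54.0 FPKM, and Tfcp2l1, at 64.7 to 97.8 FPKM, were present. The epithelial sum was 564 FPKM in TβRII-/- and 419.9 FPKM in TβRIIfl/fl serum-deprived cells, and 767 FPKM in TβRII-/- and 579.9 FPKM in TβRIIfl/fl serum-replete cells, with Krt7 the highest marker in TβRII-/- cells and Krt8 in TβRIIfl/fl cells. Without Krt7 the order was turned round, at 202 FPKM in TβRII-/- and 366 FPKM in TβRIIfl/fl serum-deprived cells, and 242 FPKM in TβRII-/- and 488 FPKM in TβRIIfl/fl serum-replete cells. Krt8 was 0.133 FPKM in TβRII-/- and 142 FPKM in TβRIIfl/fl serum-deprived cells, and 0.229 FPKM in TβRII-/- and 251 FPKM in TβRIIfl/fl serum-replete cells. Krt8 passed the filter only through the TβRIIfl/fl libraries, so its direction was set by the filter. The sums without Krt7 still hold Krt8, so the order of the sums depends on which keratin is left out. Nothing is read from that order. How far these epithelial marker differences bear on the S100a genes was not tested. The targeted gene, Tgfbr2, was lower but not absent in TβRII-/- cells, at 73.7 FPKM against 143 FPKM in TβRIIfl/fl cells after serum deprivation and 57.0 FPKM against 163 FPKM in serum-replete medium, and its value covers the whole gene, not the floxed exon alone.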

How the data were processed

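RNA-Seq was performed on 4 libraries of IMCD cells, 1 for each genotype and medium, taken from the labels, which give 30000000 reads of 50 bp. The authors processed the reads, and the submitters' notes name TopHat2, Cufflinks, Cuffdiff, and mm10 (version, annotation release, and strand not given in the sources used here). Deposited values are FPKM per locus, which the authors normalized with Cuffdiff, each medium apart. Their fold changes, p-values, q-values, significance marks, top hits, and category sheets were not used.

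The members and lists were chosen with earlier results of these data known. Log2 ratios of FPKM + 1 were computed for loci with at least 1 FPKM in either library, and loci were called at 2-fold (Python 3.11.15, pandas 2.3.3, NumPy 2.4.6; matplotlib 3.10.9 for figures). Scripts were tested on simulated data. With 1 library per condition no p-value was computed. Of low values scaled by length, 59.3% to 60.3% lay within 10% of a whole read, so reads were not recovered and depth beyond the labels is unknown; read numbers given are estimates.

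The genes named were all members, the other S100 genes, the 2 nearest loci that passed on each side of a block, the 4 genes of each list with the largest serum-deprived ratio, the 3 loci most like the most abundant member and the member with the largest ratio, and Tgfbr2. Not every gene under this rule is reported here. Others illustrate a count and were named after their values were seen. The 10 lists are other S100 genes, binding partners, receptors, other EF-hand genes, the epidermal differentiation complex, mesenchymal genes, and markers of collecting duct, fibroblasts, leukocytes, and endothelium, 145 symbols in all. Near-identical transcripts were sought in GENCODE vM21 with BLAST 2.17.0 at 90% identity over 100 bp, with a limit on the matches kept per member. Promoter windows and their motifs came from RefSeq. Alternatives were pseudocounts of 0.1 and 0.5, no filter, a filter of 5 FPKM, a 1.5-fold threshold, ratios centered on the median, and FPKM rescaled to the same upper quartile.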

Additional observations from a re-analysis of the deposited data

Results flagged for a closer look

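Among the genes named by the rule, several had ratios of opposite sign in the 2 genotypes or the 2 media. For the log2 ratio of serum-deprived to serum-replete, S100a4 was at -0.43 in TβRII-/- cells and 0.41 in TβRIIfl/fl cells, S100a6 at -0.91 and 0.06, and S100a10 at -0.33 and 0.07. Sri, which encodes sorcin, had the same order of signs, at -0.17 and 0.04. The reverse order, above 0 in TβRII-/- cells and below 0 in TβRIIfl/fl cells, was seen for Cldn4, a tight junction gene (1.45 and -0.67), Sparc (0.82 and -0.83), Efhd1 (0.59 and -0.38), Mcam (0.57 and -0.63), Fgf1 (0.50 and -0.06), and Tgfbr2 (0.36 and -0.20). For the genotype log2 ratio, after serum deprivation and in serum-replete medium, the signs differed for Sparc (1.56 and -0.10), Efhd1 (0.92 and -0.05), and Csf1r (-0.01 and 1.19). Several of these values are close to 0. None of these differences was tested, since each condition is 1 library, and the ratios between media cross tables normalized separately.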

How the results depend on the processing

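Of 140 comparisons of a single S100a gene under the 4 alternatives that act on a ratio (both pseudocounts and both scalings), 138 stayed within 1.5-fold of the value given and none changed sign. The exceptions were S100a7a with a pseudocount of 0.1 FPKM, at 5.33 after serum deprivation and 7.50 in serum-replete medium. No paired analysis was possible because the labels give no replicate numbers, each condition is 1 library, and the media are no replicates of the deletion. With a threshold of 1.5-fold, 1 S100a gene (S100a1) was lower in serum-replete TβRII-/- cells and 2 were lower with serum deprivation in TβRII-/- cells, as they were when ratios were centered on the median, the second gene being S100a6, at -1.04. That threshold took the loci higher and lower in TβRII-/- cells to 2084 and 1740 after serum deprivation and 1910 and 2632 in serum-replete medium, and those higher and lower with serum deprivation to 2460 and 1460 in TβRII-/- cells and 886 and 1103 in TβRIIfl/fl cells. A filter of 5 FPKM left 561 loci lower after serum deprivation. Medians of lists with 1 to 3 measured genes moved most. For other S100 genes in serum-replete medium the median was -3.36 with the 5 FPKM filter, 0 without a filter, and 0.078 with a pseudocount of 0.1, a change of sign for a median of -1.06. Without a filter it was 0 for other S100 genes with serum in TβRIIfl/fl cells, 0 for the epidermal differentiation complex in all 4 comparisons, -0.081 for fibroblast and -0.043 for leukocyte markers by genotype in serum-replete medium, and -0.041 for fibroblast and 0 for leukocyte markers with serum in TβRIIfl/fl cells. With a pseudocount of 0.1 it was -1.69 for fibroblast markers by genotype in serum-replete medium, and -2.28 for fibroblast and 1.47 for leukocyte markers with serum in TβRIIfl/fl cells. Depth limits S100a14, S100a7a in TβRIIfl/fl cells, and the lowest genes.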
